A study of Mus musculus with 6 samples.

Results

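The cytosolic ribosomal protein genes are the 82 genes whose symbols name a protein of the large (49 genes) or small (33 genes) subunit of the cytosolic ribosome and which held at least 60 counts over the 6 libraries, out of 49315 genes in the count table. They were chosen by symbol and by this count minimum, with earlier results of these data known. The pattern matched 84 symbols. Rpl10l with 2 counts and Rpl3l with 5 counts were left out by the count minimum, and the members nearest above it were Rpl39l with 117 counts and Rpl32l with 245. All 82 passed the filter on low counts and are among the 15142 genes tested.

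The libraries came from CD8+ T cells, taken by sorting as a whole population from tumor-draining lymph nodes of wild-type C57Bl6/J female mice with B16F10 tumors, a transplanted mouse melanoma that 1 label field spells B26F10. The monotherapy group (3 mice) received a single subcutaneous dose of HCW9218, a fusion protein that joins an interleukin-15 receptor agonist to a trap for TGF-beta. The combination group (3 mice) received HCW9218 with anti PD1, an antibody against an inhibitory T cell receptor, into the peritoneal cavity. Treatment was given at a tumor size of 50 to 100 mm3, and cells were taken on day 5. Both groups carried a tumor and received HCW9218, and no untreated group was analysed here. RNA sequencing gave 34568074 to 40101346 counts per library. Cd8a stood at 1421 to 1646 counts per 1000000 counts (CPM) and Cd4 at 0.425 to 3.06 CPM. The first principal component of the 500 most variable genes held 34.7% of their variance, with combination replicate 1 at 29.3 and the other 5 libraries between -11.3 and 1.94.

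Ribosomal proteins are assembled with ribosomal RNA in the nucleolus and are needed in near equal amounts, because each mature ribosome holds 1 copy of nearly every one; the acidic stalk proteins Rplp1 and Rplp2 are a known exception. Their mRNAs are short, abundant and stable. Most begin with a 5′ terminal oligopyrimidine (TOP) tract, a C at the cap followed by an unbroken run of pyrimidines, through which the kinase complex mTORC1 and the RNA-binding protein Larp1 control their translation as a set. T cells leaving quiescence increase ribosome production to support growth and division.

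The TOP start was looked for in RefSeq promoter sequences (GRCm38.p6), which matched 60 of the 82 members. It was searched on the sense strand as a C at the annotated start followed by at least 4 pyrimidines. It was present in 15 of these 60 members (25%) and in 312 of 10038 tested genes of the table (3.11%). With the start allowed to lie up to 5 bases away, the counts were 30 members (50.0%) and 24% of tested genes. A match describes the annotated start, which need not be the start used in these cells. The first 5 starts below are those of members with a tract; Rack1, a ribosomal scaffold protein outside the symbol pattern, also has one, and Rpl24 is shown as a member without one. Each stretch runs 5′ to 3′ from 10 bases before the start, and the capitals mark the tract from the start onward.
Rps6 (chr4:86857348-86857377, minus strand): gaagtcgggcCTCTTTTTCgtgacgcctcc
Rpl35 (chr2:39005112-39005141, minus strand): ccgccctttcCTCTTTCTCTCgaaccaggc
Rpl28 (chr7:4792955-4792984, plus strand): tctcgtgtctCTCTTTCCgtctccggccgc
Rps27 (chr3:90213629-90213658, minus strand): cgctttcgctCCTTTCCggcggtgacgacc
Rps27rt (chr9:114982720-114982749, minus strand): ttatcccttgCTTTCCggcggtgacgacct
Rack1 (chr11:48800350-48800379, plus strand): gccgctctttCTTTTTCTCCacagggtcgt
Rpl24 (chr16:55966265-55966294, plus strand): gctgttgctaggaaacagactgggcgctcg
The tracts shown span 6 bases in Rps27rt to 11 in Rpl35. Rps27 on chromosome 3 and its close copy Rps27rt on chromosome 9 were identical for the 13 bases compared after the tract. Identity over the rest of the mRNAs was not measured. Reads may be shared between such a pair by the authors' counting, and both genes' values are uncertain to that extent.

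The members made up 13.8% of all counts in monotherapy replicate 1, 12.3% in replicate 2 and 11.8% in replicate 3. In the combination group the share was 18.5% in replicate 1, 12.9% in replicate 2 and 8.19% in replicate 3. The group means were 12.7% ± 1.06 and 13.2% ± 5.16 (SD, n = 3), and all 3 monotherapy libraries lay between the highest and the lowest combination library. Both subunits moved together. Large subunit genes held 10.4% of the counts in combination replicate 1 and 4.72% in replicate 3, and small subunit genes 8.07% and 3.46%. The ratio of large to small subunit counts stayed between 1.29 and 1.36 over the 6 libraries. In bulk samples, fewer cells of a type and less RNA per cell cannot be told apart.

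**Figure D1:**
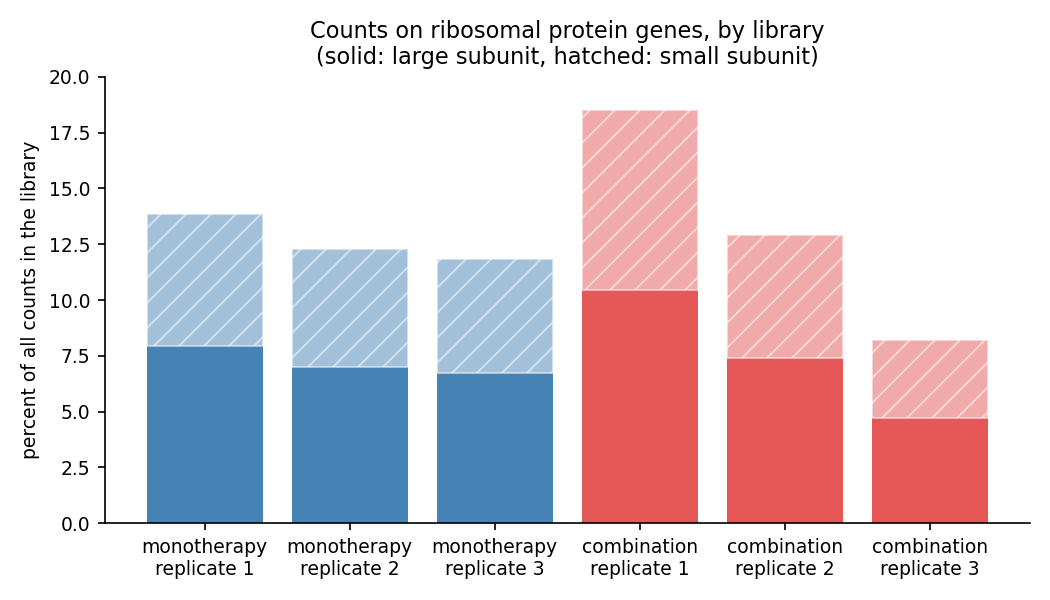
Percent of all counts (y axis) on ribosomal protein genes in each of the 6 libraries (x axis), stacked as large subunit (solid) and small subunit (hatched) genes, 1 bar per mouse. The combination libraries run from 18.5% in replicate 1 to 8.19% in replicate 3, on both sides of the monotherapy libraries at 11.8% to 13.8%.

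Per length, the members were among the strongest genes of these cells. Their median level was 746 reads per kilobase of exon and 1000000 counts (RPKM), against 4.39 RPKM over all tested genes. The highest mean was 6099 RPKM for Rplp1 (chr9:61913284-61914542), an acidic stalk protein that recruits elongation factors to the large subunit. Rps7 (3738 RPKM), Rpl17 (3011 RPKM), Rplp0 (2892 RPKM), the base of the same stalk, and Rps24 (2694 RPKM) followed. This order depends on the deposited exon lengths, which can differ from the annotated principal mRNA. They are shorter in Rpl17 (775 against 1326 bases) and Rps24 (840 against 1613), and longer in Rps4x (1631 against 975). At the other end stood Rpl39l (0.637 RPKM), Rps4l (1.41 RPKM), Rpl32l (2.76 RPKM) and Rpl6l (4.33 RPKM), the 4 members under 10 RPKM. All 4 are copies of other members. Rpl32l and Rpl6l are annotated in GENCODE as processed pseudogenes and Rps4l as a transcribed processed pseudogene, and their counts may include reads of the parent genes.

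The spread between the combination libraries ran through the whole gene set. Of the 82 members, 82 had their highest CPM in combination replicate 1, and 79 had their lowest in combination replicate 3. Over all tested genes these shares were 26.4% and 28.6%. The exceptions were Rps4l, lowest in monotherapy replicate 1, and Rplp2 and Rpl39l, lowest in combination replicate 2. In 80 members the 3 combination libraries stood in the same order, replicate 1 above 2 above 3. The CPM of combination replicate 1 was a median of 2.99-fold that of replicate 3, with the smallest difference, 1.76-fold, in Rplp2, and was more than 2-fold in 76 members. The median was 2.41-fold with library totals alone and 1.94-fold on the deposited regularized-log values, which are on a shrunken log2 scale.

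Rps7 (chr12:28630847-28635953), a small subunit protein, was one of the most variable members. Its CPM was 3961, 3073 and 2798 in the monotherapy libraries and 6222, 3743 and 1755 in the combination libraries. The large subunit protein Rpl26 (chr11:68901583-68906989) stood at 1125, 876.1 and 831.6 CPM under monotherapy and at 1960, 1105 and 523.3 CPM under the combination. Both genes had their highest and lowest library within the combination group, with the monotherapy libraries between them. Between combination replicates 1 and 3, Rps7 differed 3.55-fold, Rpl26 3.75-fold and Rps27a, whose product is made as a fusion with ubiquitin, 3.59-fold. The largest spread was that of Rpl39l, which rests on 6 to 35 counts a library.

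Rps6, the substrate of the S6 kinases downstream of mTORC1, followed the same order. Its CPM was 2457, 2032 and 1980 under monotherapy and 3497, 2463 and 1287 under the combination. Rpsa, also known as a laminin receptor, was at 5823, 5152 and 4919 CPM and at 8614, 6203 and 3081 CPM in the same order of libraries. The X-linked Rps4x had 4594, 3445 and 3285 CPM under monotherapy and 6390, 4323 and 1999 CPM under the combination. In each of these 3 genes combination replicate 1 was the highest library and combination replicate 3 the lowest. Rpl5 and Rpl11, which bind the p53 regulator Mdm2 together when ribosome assembly fails, differed 2.84-fold and 3.13-fold between those 2 libraries. Rpl22, whose loss is known to impair the development of alpha-beta T cells, differed 2.88-fold, and Rpl3, an early assembly protein of the large subunit, 2.25-fold.

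Some members spread less. Rpl8, a large subunit protein near the catalytic centre, showed 1932, 1948 and 1918 CPM under monotherapy, an SD of 0.01 on the log2 scale, and 2636, 1742 and 1350 CPM under the combination. Its monotherapy libraries were almost level, while the combination libraries still ran from replicate 1 down to replicate 3. Rplp2, the partner of Rplp1 in the stalk, was at 638.4, 795.3 and 778.5 CPM and at 1057, 560.0 and 599.9 CPM, and so parted from Rplp1, which stood at 3516, 2878 and 2677 CPM and at 4749, 2885 and 1556 CPM. Rpl28 and Rpl35, both with a TOP start, differed 1.94-fold and 3.64-fold between combination replicates 1 and 3. The 15 members with a TOP start and the 45 with another start had median log2 differences of 1.49 and 1.57 between these libraries.

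To place the libraries side by side, each member's log2 CPM was set against its mean over the 6 libraries. The median of this deviation was 0.21, -0.06 and -0.14 in monotherapy replicates 1, 2 and 3, and 0.73, 0.06 and -0.81 in combination replicates 1, 2 and 3. Over all tested genes the medians lay between 0.00 and 0.02. A milder order was present within monotherapy, where replicate 1 was the highest of the 3 libraries in 75 members and replicate 3 the lowest in 67. The median SD of log2 CPM was 0.19 under monotherapy and 0.80 under the combination for members. It was 0.12 and 0.27 for the 309 other genes of like CPM (376 to 3087). These have longer mRNAs, with a median of 2970 bases against 860 for the members. For the 61 other genes at 64 CPM or more with an mRNA under 800 bases, the median SDs were 0.18 and 0.59. The SD was larger under the combination in 82 of 82 members and in 72.7% of all tested genes. The monotherapy range lay inside the combination range in 81 of 82 members and in 36.7% of all tested genes. edgeR's biological coefficient of variation, taken here from its gene-wise dispersion as a description, had a median of 29.2% for members. It was 16.4% for the genes of like CPM.

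**Figure D2:**
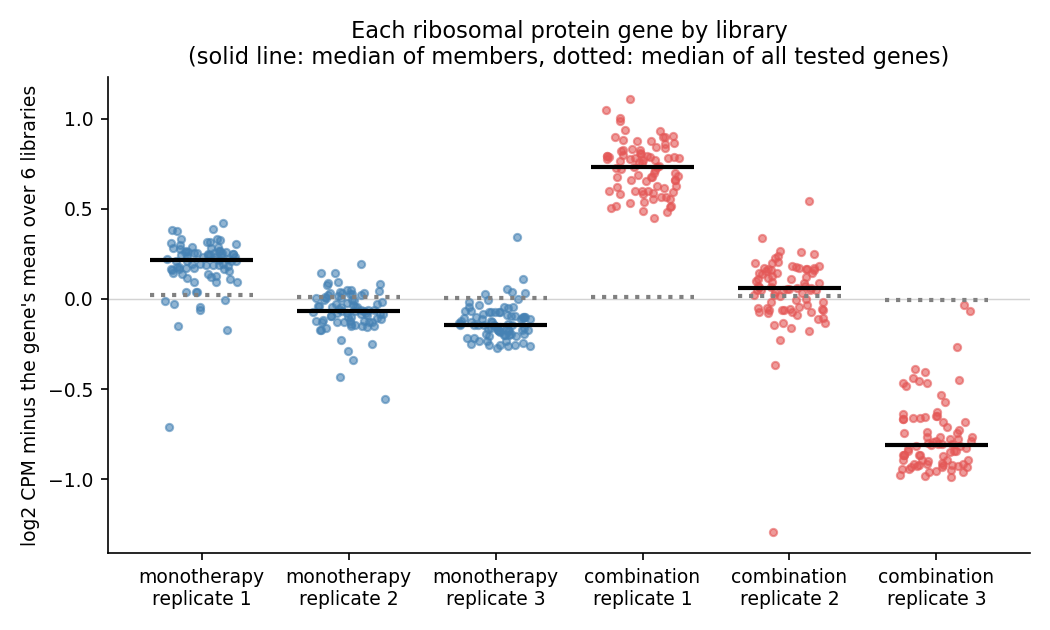
Deviation of each ribosomal protein gene's log2 CPM from its own mean over the 6 libraries (y axis), 1 point per gene, by library (x axis); solid lines mark the median of the 82 genes and dotted lines the median of all tested genes. The gene set sits at 0.73 in combination replicate 1 and at -0.81 in combination replicate 3, while the median of all genes stays near 0.

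Ribosomal protein genes outside the symbol pattern moved with the members. The 4 genes listed, among them Fau (made as a fusion with a ubiquitin-like domain), Rack1 and Rpl22l1, were highest in combination replicate 1 and lowest in replicate 3 in 4 of 4 cases, with a median log2 difference of 1.59 against 1.58 for the members. Fau was at 1356, 1212 and 1113 CPM under monotherapy and at 2063, 1205 and 717.1 CPM under the combination. The 21 translation factors and other genes listed for their TOP mRNAs differed less, by a median log2 difference of 0.53. Among them Tpt1, a growth-related protein, stood at 5835 and 2314 CPM in combination replicates 1 and 3, while Eef2, the elongation factor of translocation, stood at 6379 and 5055 CPM, and Pabpc1, the poly(A)-binding protein, at 2272 and 2010 CPM. Summed CPM of the members was 3.12, 3.01 and 2.98 times that of this list in the monotherapy libraries and 3.86, 2.93 and 2.40 times in the combination libraries. The members therefore spread more than the list, whose median mRNA length was 1939 bases against 860 for the members. The promoter sequences matched 15 genes of this list. A TOP tract was found at the annotated start in 2 of these 15 (13.3%), and within 5 bases of it in 6 (40%).

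Other steps of ribosome production were flatter between the same libraries. The 30 ribosome assembly genes had a median log2 difference of 0.23 between combination replicates 1 and 3, the 13 genes of ribosomal RNA transcription 0.41, and the 18 genes of mTORC1 and its TOP regulators -0.17. Their median mRNA lengths were 2544, 2986 and 5058.5 bases, against 860 for the members. At 64 CPM or more, other genes of 2000 to under 4000 bases had a median log2 difference of 0.10, and those of 4000 or more -0.32. The part of length in the lists' values was not tested. The summed share of the assembly genes stayed between 0.378% and 0.410% of counts in all 6 libraries. The 78 mitochondrial ribosomal protein genes had a median log2 difference of 0.79, and 69 of them were highest in combination replicate 1.

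Between combination replicates 1 and 3, other genes differed with their transcript length, and transcripts of the mitochondrial genome and nuclear RNAs differed too. The members' principal mRNAs had a median length of 860 bases, against 2911 bases over all tested genes with a length. Among the other genes at 64 CPM or more, the 61 with an mRNA under 800 bases had a median log2 difference of 1.15 between combination replicates 1 and 3, and 56 of them were highest in the first and 56 lowest in the second. The median fell to 0.91 from 800 to under 1200 bases (123 genes), 0.48 from 1200 to under 2000 (455), 0.10 from 2000 to under 4000 (1266) and -0.32 at 4000 bases or more (1304). Among the members the medians were alike, 1.59 under 500 bases, 1.60 from 500 to under 800 and 1.57 at 800 or more. The 13 protein-coding genes of the mitochondrial genome had a median log2 difference of 1.35. Of these, 12 were lowest in combination replicate 3 but 7 highest in combination replicate 1, and their summed share of counts was 3.21% there, against 3.33% in combination replicate 2 and 3.31% in monotherapy replicate 1. The 4 long RNAs that stay in the nucleus had a median log2 difference of -1.08. One of these, Malat1, stood at 655.5 CPM in combination replicate 1 and at 1357 CPM in replicate 3. The part of transcript length and of RNA quality in the members' spread was not tested. A check of RNA integrity is named in the labels without its values.

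**Figure D3:**
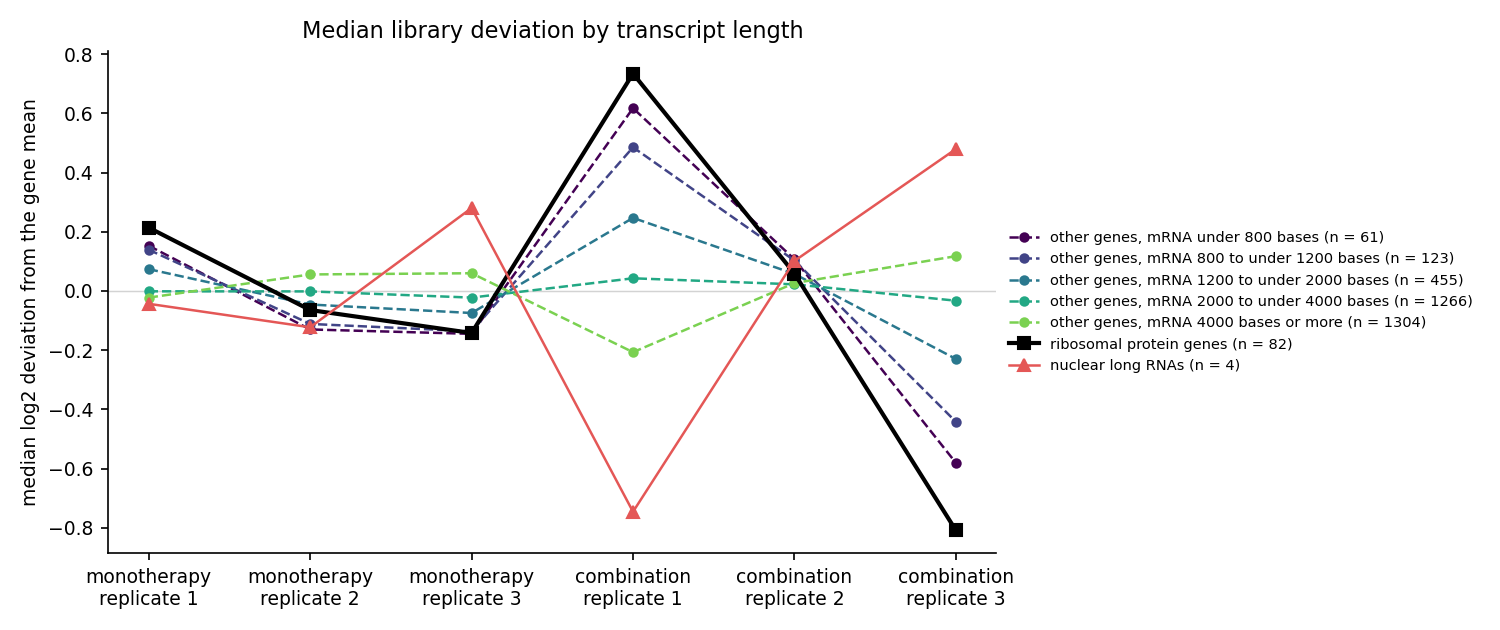
Median deviation of log2 CPM from each gene's mean (y axis) by library (x axis) for the ribosomal protein genes (squares), 4 nuclear long RNAs (triangles) and other genes at 64 CPM or more in 5 classes of mRNA length (circles). In combination replicate 1 the medians fall in order from the ribosomal protein genes (0.73) over genes under 800 bases (0.62) to genes of 4000 bases or more (-0.21), and in combination replicate 3 the order is turned round.

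The summed level of 9 markers of CD8+ T cells, on the same CPM scale as the single genes, was 6396 to 7678 CPM under monotherapy and 5874 to 7714 CPM under the combination. Of these 9 markers, 5 were highest in combination replicate 1 and 6 lowest in combination replicate 3, with a median log2 difference of 0.54 between those libraries. The lists of other cells were low beside the CD8+ list. The 8 B cell markers summed to 495 to 563 CPM and 510 to 624 CPM, of which Ighm, an immunoglobulin heavy chain gene, held 433 to 512 CPM and 450 to 545 CPM. Among them Cd22 was called higher under the combination, while the list's median log2 fold change was -0.38 with 3 of 8 above 0. The 5 natural killer cell markers summed to 7.83 to 9.16 CPM and 12.9 to 21.7 CPM, with Klre1 called higher. The 5 plasma cell markers summed to 43.6 to 50.5 CPM and 36.5 to 40.0 CPM (median log2 fold change -0.61), and the erythroid genes to 2.10 to 7.49 CPM and 1.03 to 1.85 CPM (median -1.52 over 3 tested), without overlap of the groups and with 0 genes called in either list. Stroma and endothelial markers summed to 136 to 176 CPM and 120 to 141 CPM, of which Pecam1 held 118 to 153 CPM over the 6 libraries. Their median log2 fold change was -0.82 over 4 tested genes, 0 of them called, and Ccl21a was at 0 in all 6 libraries. The 7 melanocyte markers summed to 21.9 to 28.7 CPM and 30.3 to 54.7 CPM, the 3 CD4+ T cell markers to 4.01 to 7.82 CPM and 1.58 to 5.12 CPM, the myeloid markers to 9.17 to 21.6 CPM and 12.5 to 14.8 CPM, and the 8 dendritic cell markers to 25.4 to 56.5 CPM and 25.1 to 49.1 CPM. The part of other cells in the members' values was not tested.

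The comparison of combination with monotherapy called no ribosomal protein gene. With edgeR's quasi-likelihood test and an adjusted p under 0.05, 0 of 82 members were called, against 164 of 15142 tested genes (1.08%). The adjusted p of the members ran from 0.572 to 0.998. An unadjusted p under 0.05 was reached by 1 member, the pseudogene Rps4l, against 8.00% of all tested genes. DESeq2 called 0 of 82 (background 2.34%) and limma-voom 0 of 82 (background 0.911%). At such background shares, 0 calls among 82 genes carry little information. In 0 of 82 members did the libraries of the 2 groups not overlap in CPM, a separation found in 14.7% of all tested genes. The log2 fold change was above 0 in 71 members and below 0 in 11, with a median of 0.12 against -0.00 over all tested genes. The median SE was 0.35 for members and 0.21 for all tested genes, so a member's difference had to be larger than that of a typical gene to be told from 0. The sign depended on the method and on single libraries. With all 6 libraries kept, it differed from the main value in 25 members with limma-voom and 15 with library totals only. It differed in 0 members with DESeq2. Without combination replicate 1 the median was -0.28 with 3 members above 0, and without combination replicate 3 it was 0.40 with 81 above 0.

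**Figure D4:**
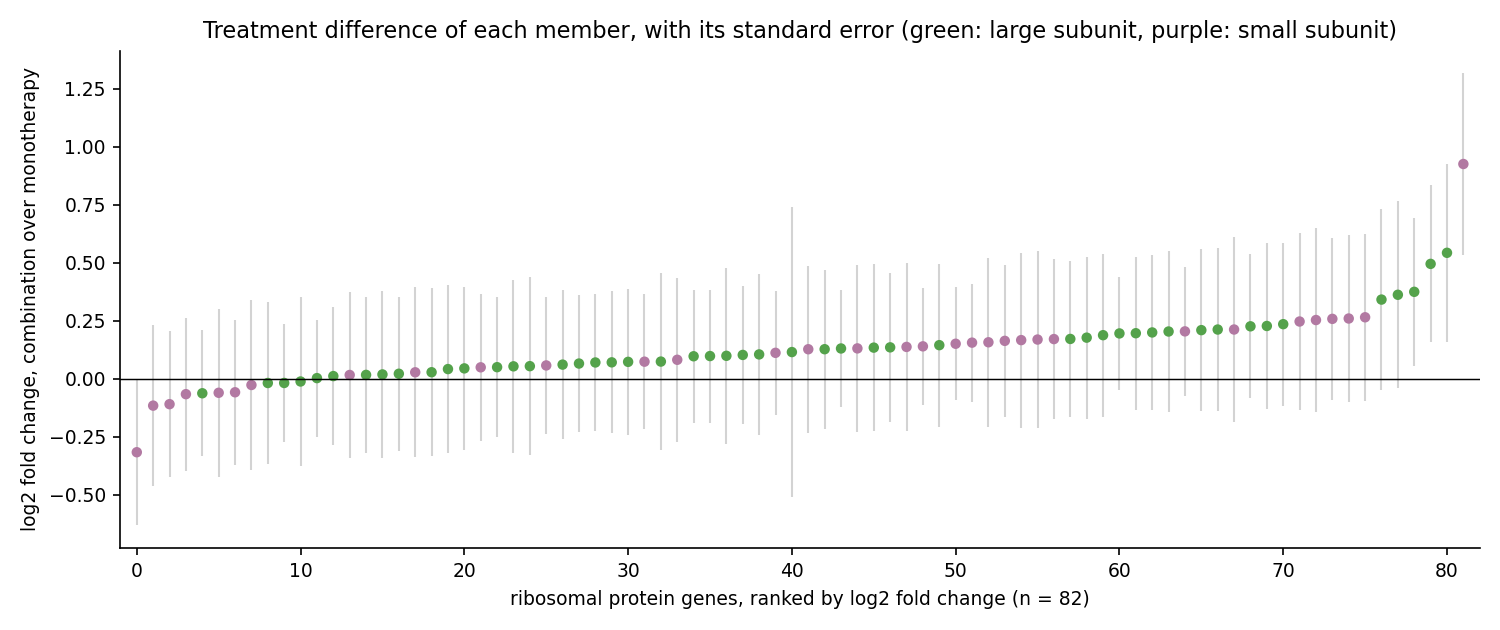
Log2 fold change of combination over monotherapy (y axis) with its standard error (bars) for each of the 82 ribosomal protein genes (x axis, rank by value), coloured by subunit. The values run from -0.32 (Rps29) to 0.93 (Rps4l), 71 lie above 0, and none passed the test.

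The largest positive differences included those of weak copies and of large subunit genes. Rps4l (chr6:148354656-148355598) stood at 0.724, 0.813 and 1.21 CPM under monotherapy and at 2.58, 1.48 and 1.19 CPM under the combination. Its log2 fold change was 0.93 ± 0.39 (SE), with an unadjusted p of 0.0400 and an adjusted p of 0.572 by edgeR. The groups overlapped in 1 library, and the gene held 295 counts in all. Rpl32l followed with a log2 fold change of 0.54 ± 0.38 on 245 counts.

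Rpl24 (chr16:55966275-55971435), a large subunit protein at the interface of the subunits, had 234.0, 185.9 and 188.2 CPM under monotherapy and 434.6, 286.9 and 135.6 CPM under the combination. Its lowest library was combination replicate 3, so the groups overlapped, and its log2 fold change was 0.50 ± 0.34 (adjusted p = 0.860 by edgeR). Without combination replicate 3 the log2 fold change was 0.83 with an adjusted p of 0.0422, the single member called under any alternative. Rpl29, another large subunit protein, had a log2 fold change of 0.37 ± 0.32 (adjusted p = 0.926 by edgeR) and did not pass the test either.

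The most negative difference was that of Rps29 (chr12:69157722-69159186), a small zinc-binding protein of the small subunit head. It stood at 498.4, 426.1 and 380.1 CPM under monotherapy and at 538.0, 317.6 and 192.1 CPM under the combination, a log2 fold change of -0.32 ± 0.31 (adjusted p = 0.934 by edgeR). Its highest and lowest library were both in the combination group. Rps27, Rps27rt, Rps28 and Rpl36 followed with log2 fold changes of -0.12, -0.11, -0.07 and -0.06. The stress-related copy Rps27l was at 26.4, 22.4 and 21.4 CPM and at 38.4, 27.3 and 15.3 CPM, with a log2 fold change of 0.20.

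The shift that members had in common can be set aside by expressing each gene as a percent of all member counts in its library. On this scale the highest library was a median of 1.22-fold the lowest, against 3.02-fold in CPM, so the proportions among ribosomal protein mRNAs were close between libraries. The groups did not overlap for 13 of 82 members on this scale, 4 higher and 9 lower under the combination. In CPM, 14.7% of all tested genes did not overlap, against 0 of 82 members. Divided by the same member totals, 4.21% of all tested genes did not overlap, but those genes carry the shift of the members in their denominator. Neither share is measured like that of the 13 members, which are therefore listed as a description only. The smallest p that an exact two-sided permutation test of 3 against 3 libraries can give is 0.1, so no single member can be called in this way.

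Rps29 made up 0.348%, 0.354% and 0.332% of the member counts under monotherapy and 0.262%, 0.238% and 0.262% under the combination, means of 0.345% ± 0.011 and 0.254% ± 0.014 (SD, n = 3) and a ratio of 0.737. Every combination library was below every monotherapy library. Rps27 went from 1.11%, 1.08% and 1.00% to 0.944%, 0.866% and 0.879%, a ratio of 0.840. Also on the lower side were Rps27rt, Rps28, Rps19, Rplp1, Rpl12 and Rpl23, with ratios of 0.852 to 0.923. Of the 9 lower genes, 5 had a principal mRNA under 500 bases, as had 11 of the 79 members with a known length. Of the 4 higher genes, 0 of the 3 with a known length had one.

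On the higher side, Rpl24 made up 0.163%, 0.154% and 0.165% of member counts under monotherapy and 0.212%, 0.215% and 0.185% under the combination, a ratio of 1.27. Rpl29 went from 0.567%, 0.538% and 0.555% to 0.652%, 0.672% and 0.653%, a ratio of 1.19. In both genes the 3 combination libraries lay above the 3 monotherapy libraries, unlike in CPM. Rpl10a (ratio 1.08) and the weak Rps4l (ratio 1.79) completed the 4. Scaled to the members' total, edgeR called 0 of 82 members and 0 of all tested genes.

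**Figure D5:**
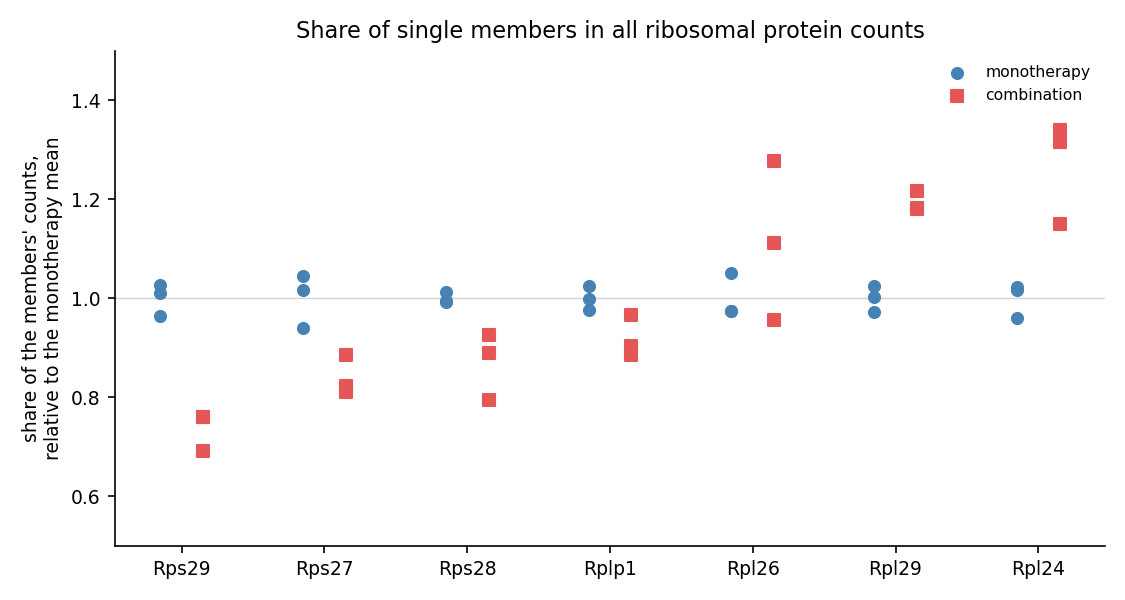
Share of 7 ribosomal protein genes in all ribosomal protein counts, divided by the monotherapy mean of that gene (y axis), 1 point per library, circles for monotherapy and squares for the combination. Rps29, Rps27, Rps28 and Rplp1 lie lower and Rpl29 and Rpl24 higher in all 3 combination libraries, while the libraries of Rpl26 overlap.

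The other genes of the pathway gave the same count of calls between the treatments. As edgeR called 1.08% of all tested genes, 0 calls in lists of 4 to 78 genes carry little information. At adjusted p under 0.05, edgeR called 0 of the 21 genes listed for TOP mRNAs and 0 of the 4 further ribosomal protein genes. It called 0 of the 30 assembly genes and 0 of the 13 genes of ribosomal RNA transcription. It also called 0 of the 18 genes of mTORC1 and its TOP regulators and 0 of the 78 mitochondrial ribosomal protein genes. The same test called 0 of the 13 mitochondrial genome transcripts and 0 of the 4 nuclear RNAs, and DESeq2 and limma-voom also called 0 in each of these lists. An unadjusted p under 0.05 was reached by Vim, the intermediate filament vimentin, and by Mrps25, with log2 fold changes of 0.43 and 0.41. Median log2 fold changes ran from -0.07 for the nuclear RNAs to 0.11 for the further ribosomal protein genes. Larp1 had a log2 fold change of 0.08 and Eef1a1, the elongation factor that brings aminoacyl-tRNA to the ribosome, one of 0.06. Myc, a transcription factor that drives ribosome production, stood at 131.1, 143.7 and 152.0 CPM under monotherapy and at 115.5, 107.9 and 126.0 CPM under the combination. Every combination library of Myc was below every monotherapy library, with a log2 fold change of -0.29 ± 0.13 (adjusted p = 0.625 by edgeR), which did not pass the test.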

How the data were processed

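Bulk RNA sequencing libraries of 3 monotherapy and 3 combination mice were analysed. Groups and replicate numbers came from the labels. The submitters' processing notes name STAR 2.5.2b, featureCounts and Subread 1.5.2 as well as DESeq2. Settings, strand use, handling of multiply matching reads and the build used were not given in the sources used here, so reads of overlapping or near-identical genes may be shared. The deposited counts are whole reads per gene; the sample files and the series table were identical in 6 of 6 libraries, and 6 further columns that match no sample were left aside. The normalized table deposited by the authors holds a signal, the count over a size factor, for 15047 genes. Each library's size factor was taken here as the median ratio of the deposited counts to these values. Multiplied by it, 100% of the values equalled the deposited counts within 0.01 read. On them edgeR called 142 genes higher and 20 lower, which is a refit of the same counts. The deposited regularized-log values are on a log2 scale and were used as an alternative.

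The main analysis used edgeR 4.0.16 in R 4.3.3: filterByExpr by group (15142 genes), TMM factors of 0.901 to 1.12, and the quasi-likelihood test of the combination over monotherapy, without covariates, and Benjamini-Hochberg adjustment over all tested genes. DESeq2 1.42.0 and limma 3.58.1 were alternatives, with other scalings, filters and prior counts, and each library left out. The fit was tested on simulated data. Genes were drawn there independently, so the fit was not tested under a shift that members share between libraries. Log2 CPM used a prior count of 2. RPKM used the deposited exon length per gene. All 82 members overlap their gene in GENCODE M21 (GRCm38), 68 with the same span; mRNA lengths are those of the principal transcript (79 members). Coordinates of genes are those of the deposited files. The labels do not say that equal replicate numbers share a litter, batch or day. The members and lists were chosen with earlier results of these data known. Results for some members and list genes are not reported here. Named members are the 5 largest differences in each direction, the 6 highest and 4 lowest in RPKM, the 5 with the largest spread, and genes of known roles; Rplp2, Rpl8, Rpl28, Rpl35, Tpt1, Pabpc1 and the members whose groups do not overlap in their share of member counts were added after their values were seen.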

Additional observations from a re-analysis of the deposited data

How the results depend on the processing

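How many genes were called over the whole table depended on the settings. The members gave no call in nearly all of them, which carries little information beside the main background of 1.08%. The main test called 144 genes higher and 20 lower. The counts were 340 and 113 with genes kept at 1 count in 1 library, 282 and 72 with DESeq2, 0 and 0 with libraries scaled to the members' total, and 32 to 233 higher and 2 to 49 lower when 1 library was left out. The replicate block gave 231 and 57, with 0 members called; same-numbered libraries had correlations of deviations of 0.15, -0.06 and 0.28, so the numbers were not taken as pairs, and monotherapy replicate 2 did not correlate best with its own number. The 18 alternatives include the recovered reads, which are the same counts. Over all 18, 1 of 1475 recomputed member values was called, Rpl24 without combination replicate 3 (members called: 1). In that setting 1 nuclear RNA was called, Neat1 (log2 fold change -0.89, adjusted p = 0.0280). The sign of the log2 fold change differed from the main value in 240 member values, 68 of them without combination replicate 1, and the cause was not tested. The median SD of log2 CPM was 0.108 under monotherapy with regularized-log values, and under the combination 0.641 with library totals and 0.479 with regularized-log values. Under the 7 other scalings, prior counts and transformations, 81 to 82 members were highest in combination replicate 1 and 78 to 79 lowest in combination replicate 3. With both of those libraries left out, an alternative added after the data were seen, as were the scaling to the member total and the recovered reads, the median log2 fold change of the members was 0.07 and 0 members were called; the lone combination library is then assumed to vary like the others. The 3 mice a group limit the precision for all members, and depth limits it further for Rpl39l, Rpl32l and Rps4l, which hold 117 to 295 counts in all.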
